A study of Mus musculus with 26 samples.

Results

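The guanylate-binding proteins (GBPs) are large GTPases of the dynamin superfamily that cells make in quantity after exposure to interferons, above all interferon-gamma. They assemble on membranes and on bacterial surfaces, help to break open the vacuoles that shelter intracellular microbes, and promote inflammasome activation. In liver they are made by macrophages, endothelial cells and hepatocytes alike. The 10 genes described here, Gbp2 to Gbp11, were picked by symbol from a table of 55401 genes, and all 10 passed the filter on low counts that left 16238 genes. The table also holds Gbp2b, formerly called Gbp1, which was tested and is given for comparison, and the pseudogene Gbp2-ps, which had no read in any library.

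The mice were male C57BL/6, kept from 4 weeks of age on a high-fat diet (the series design adds high cholesterol) for 18 weeks. The comparison is between 9 livers of untreated mice on this diet (untreated HFD) and 8 livers of mice on the same diet that also had tail-vein injections of UCMSC-derived exosomes, small vesicles shed by cells, at 72-hour intervals over 8 weeks (UCMSC-Exos). The labels call both groups MASLD mice, that is, mice with metabolic fatty liver disease. Of the 9 treated livers the design names, 8 were analysed here (replicates 1 to 3 and 5 to 9). The labels name no injection in untreated HFD, so an exosome response and a response to the tail-vein procedure, housing or cohort cannot be told apart. The libraries of the third group, LSCR, were not analysed here. The labels number the samples but do not state that each is a separate mouse, and p-values measure the spread between these samples.

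All libraries held the hepatocyte markers expected of liver, with a summed level of 34750 to 53083 CPM (reads of a gene scaled to the size of the library) in untreated HFD and 41509 to 77332 in UCMSC-Exos. Totals were 32.9 to 36.1 M reads. Pancreatic acinar markers summed to 10942 CPM in untreated HFD 3 and to between 8.28 and 18.4 CPM in the other 16 libraries. Striated muscle markers summed to 7942 CPM in untreated HFD 9 and to between 0.782 and 2.29 CPM in the others. The counts for the GBPs and the other gene lists were therefore also made without both.

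In mouse the family lies in a pair of gene clusters (mm10). On chromosome 3, 6 Gbp genes occupy positions 142493978 to 142669383 on the plus strand, in the order Gbp5, Gbp7, Gbp3, Gbp2b, Gbp2 and Gbp2-ps. On chromosome 5, the other 6 occupy positions 105014150 to 105346472 on the minus strand: Gbp8, Gbp9, Gbp4, Gbp10, Gbp6 and Gbp11. GENCODE lists 9 of the members as protein coding and Gbp11 as a polymorphic pseudogene, and RefSeq lists Gbp11 as a transcribed pseudogene.

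Interferon acts on GBP promoters through the interferon-stimulated response element (ISRE), bound by IRF proteins, and the gamma-activated site (GAS). RefSeq promoter windows on GRCm38.p6, from 250 bases before to 50 after an annotated start, matched 4 of the 10 members (Gbp2, Gbp3, Gbp5 and Gbp7) and also Gbp2b. Each of these 5 genes held the ISRE core, taken as GAAA, any 2 bases and GAAA again and searched on both strands. That core occurs in 3.99% of the 27025 genes with a window and in 3.44% of all 32851 windows. The 80-base stretches around it are shown for these chromosome 3 genes, both those that fell in the comparison below and those that did not. Likeness within the match follows from the search, and likeness of the bases around it was not measured. They are written 5′ to 3′ on the plus strand, with the match, which reads as the reverse complement of that core, in capitals.
Gbp5, chr3:142496734-142496813: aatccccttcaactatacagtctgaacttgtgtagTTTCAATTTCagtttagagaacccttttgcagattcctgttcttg
Gbp7, chr3:142530248-142530327: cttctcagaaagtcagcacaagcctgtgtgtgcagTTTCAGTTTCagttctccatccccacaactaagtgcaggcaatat
Gbp3, chr3:142559964-142560043: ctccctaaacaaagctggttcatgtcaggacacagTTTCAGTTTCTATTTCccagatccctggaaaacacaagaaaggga
Gbp2b, chr3:142594675-142594754: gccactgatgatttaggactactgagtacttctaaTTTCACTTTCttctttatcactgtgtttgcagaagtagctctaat
Gbp2, chr3:142620569-142620648: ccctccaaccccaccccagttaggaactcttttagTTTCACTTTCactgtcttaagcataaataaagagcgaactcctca

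Counted from the annotated start, the first base of the match lay at −59 in Gbp2, −45 in Gbp3 and −53 in Gbp7, and further out in Gbp5 (−165) and Gbp2b (−137). Gbp3 held 2 overlapping matches, and its second annotated window held none. The GAS core TTCNNNGAA, present in 8.3% of windows and 9.55% of genes, occurred at 2 places in Gbp5 and at 2 in Gbp7. These letters were not in the windows of Gbp2, Gbp3 or Gbp2b. No GAS match overlapped an ISRE match. A match is a description of the letters, not evidence of binding.

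In UCMSC-Exos livers 7 of the 10 members were lower than in untreated HFD, and no member was called higher (edgeR quasi-likelihood test, Benjamini-Hochberg adjusted p under 0.05). Of all genes tested, 10.4% were called lower and 9.73% higher, 20.2% in all. The median log2 fold change of the 10 members was −0.61, against −0.02 over all genes tested. Gbp3 and Gbp9 fell by 47.8% and 47.7%, Gbp4, Gbp6, Gbp5 and Gbp7 by 32.7% to 41.1%, and Gbp8 by 21.9%. Gbp2, Gbp10 and Gbp11 did not pass. In bulk liver, fewer cells that make a transcript cannot be told apart from less of it per cell.

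**Figure D1:**
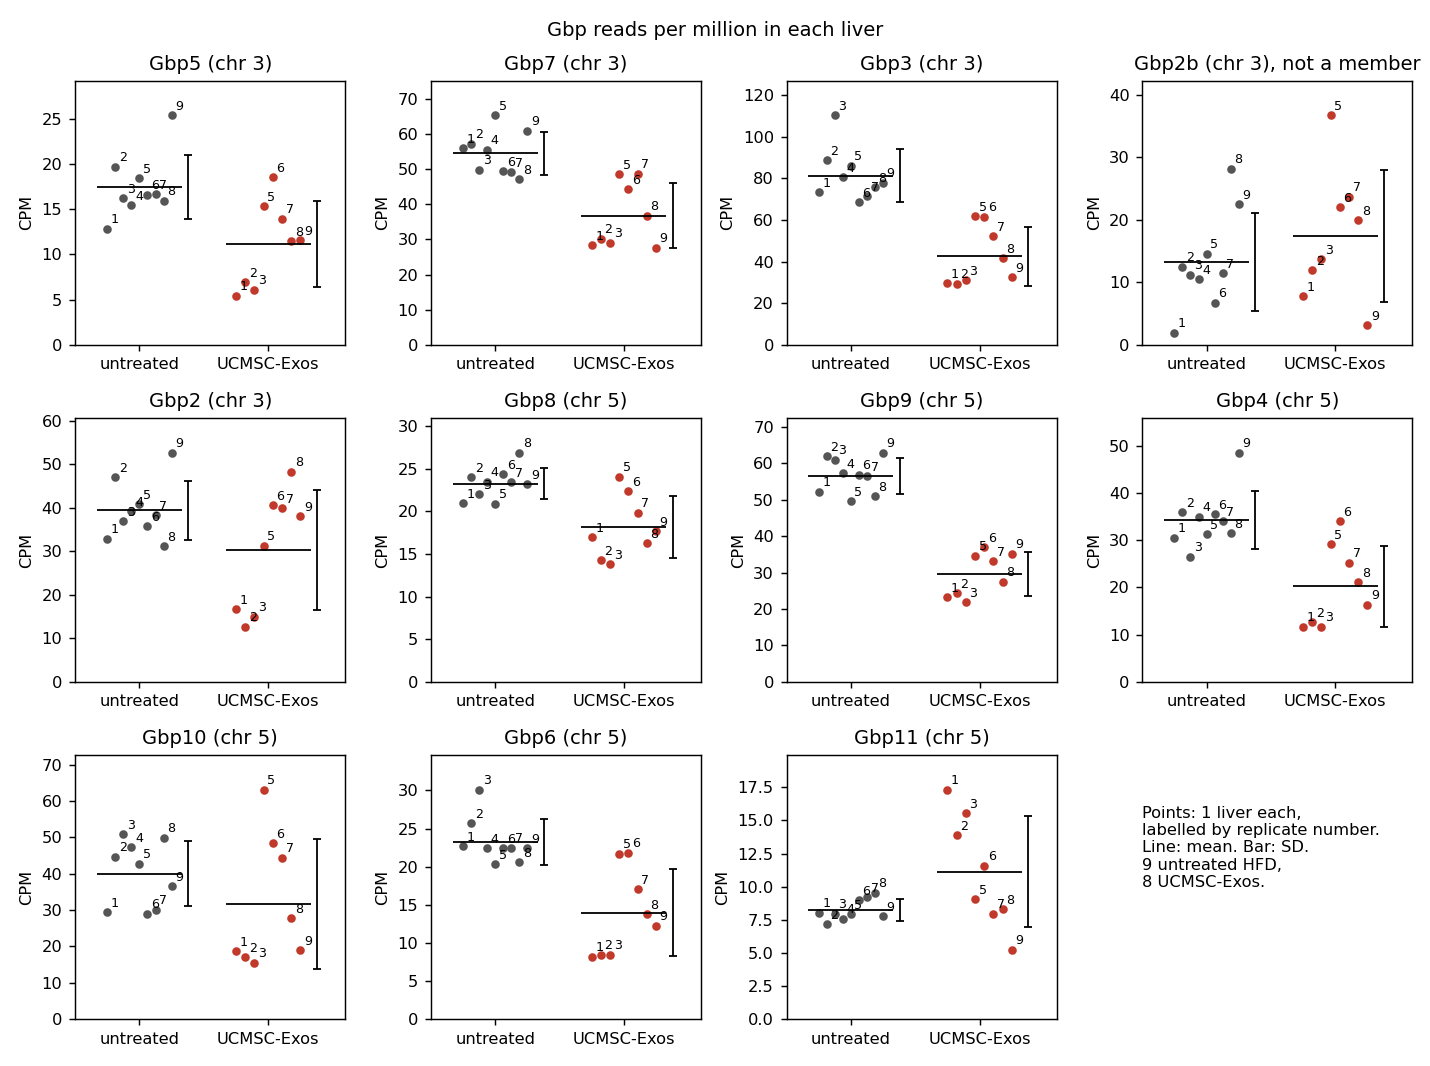
CPM of each Gbp gene in every liver, untreated HFD (grey, n = 9) beside UCMSC-Exos (red, n = 8), with replicate numbers, the mean as a line and the SD as a bar. For Gbp3 and Gbp9 all 8 treated livers lie below all 9 untreated ones; for Gbp2, Gbp10 and Gbp2b the groups overlap widely, and for Gbp11 UCMSC-Exos 1, 2 and 3 lie above the rest.

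On chromosome 3, 3 of the 4 members fell. Gbp3, one of the chromosome 3 GBPs, a cluster needed for full activation of the non-canonical inflammasome, had a lowest, median and highest value of 68.6, 78.0 and 110 CPM in untreated HFD. The same values were 29.4, 37.0 and 62.0 CPM in UCMSC-Exos. The groups did not overlap, which held for 0.807% of all genes tested when every treated library had to be below every untreated one. The log2 fold change was −0.94 ± 0.16 (SE; edgeR adjusted p = 9.15e-04).

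Gbp7, linked in macrophages to the assembly of the NADPH oxidase on vacuoles, ran from 47.1 over a median of 55.6 to 65.4 CPM in untreated HFD. In UCMSC-Exos it ran from 27.6 over 33.5 to 48.8 CPM, with 6 of 8 libraries below every untreated one and all 8 below the untreated median, as in 7.48% of all genes tested. Its log2 fold change was −0.57 ± 0.12 (edgeR adjusted p = 0.00448).

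Gbp5, a prenylated GBP known for its part in inflammasome activation, had 12.8, 16.6 and 25.4 CPM as the lowest, median and highest untreated values. In UCMSC-Exos these were 5.43, 11.5 and 18.5 CPM, so the groups overlapped: 5 of 8 treated libraries lay below every untreated one. Its change of −0.65 ± 0.22 passed narrowly (edgeR adjusted p = 0.0434). The call was lost in 10 of 17 fits that left out 1 library: untreated HFD 2, 4, 5, 6, 7 or 9, or UCMSC-Exos 1, 2, 3 or 8. Adjusted p in those 17 fits ran from 0.0157 to 0.0879 and the log2 fold change from −0.79 to −0.54.

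Gbp2, also prenylated and one of the GBPs that coat the vacuole of Toxoplasma, did not pass. Untreated values were 31.1, 38.2 and 52.7 CPM (lowest, median, highest) and treated ones 12.7, 34.6 and 48.3 CPM. UCMSC-Exos 1, 2 and 3 stood at 16.6, 12.7 and 14.9 CPM, below every untreated liver, and the other 5 treated libraries at 31.2 to 48.3 CPM, within the untreated range. The log2 fold change was −0.38 ± 0.24 with a 95% interval from −0.88 to 0.12 (edgeR adjusted p = 0.259), which also holds changes of the size seen in Gbp7 and Gbp5.

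The neighbouring Gbp2b, not a member, varied most. It ran from 1.90 CPM in untreated HFD 1 to 28.2 in untreated HFD 8, and from 3.08 CPM in UCMSC-Exos 9 to 36.7 in UCMSC-Exos 5. The coefficient of variation was 59.4% in untreated HFD and 60.9% in UCMSC-Exos, against 7.98% to 22.4% among the 10 members in untreated HFD. Its log2 fold change of 0.39 ± 0.45 did not pass (edgeR adjusted p = 0.571; 95% interval −0.57 to 1.34).

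On chromosome 5, 4 of the 6 members fell. Gbp9, which is recruited to the Toxoplasma vacuole, had the smallest p of the family. It ran from 49.5 over a median of 56.9 to 62.9 CPM in untreated HFD, and from 21.9 over 30.3 to 36.9 CPM in UCMSC-Exos. The 2 groups did not overlap, as for Gbp3. Its log2 fold change was −0.93 ± 0.11 (edgeR adjusted p = 1.45e-05) and lay between −0.99 and −0.88 in the 17 fits without 1 library.

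Gbp4, described as an inhibitor of the interferon regulator IRF7, had 26.5, 34.0 and 48.6 CPM in untreated HFD (lowest, median, highest) and 11.7, 18.7 and 34.1 CPM in UCMSC-Exos. In 6 of 8 treated libraries it lay below every untreated one, while UCMSC-Exos 5 and 6, at 29.1 and 34.1 CPM, lay within the untreated range. The log2 fold change was −0.76 ± 0.21 (edgeR adjusted p = 0.0165). Gbp6 behaved alike: 20.3 to 30.1 CPM in untreated HFD with a median of 22.4, and 8.16 to 21.9 CPM in UCMSC-Exos with a median of 12.98. Its change was −0.74 ± 0.19 (edgeR adjusted p = 0.0137).

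Gbp8 showed the smallest change among those called. Untreated values ran from 20.9 over 23.4 to 26.9 CPM and treated ones from 13.8 over 17.3 to 24.04 CPM, with 6 of 8 treated libraries below every untreated one. The log2 fold change was −0.36 ± 0.10 (edgeR adjusted p = 0.0212).

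Gbp10 did not pass, and its treated livers were spread over both sides of the untreated ones. Its untreated values were 29.0, 42.8 and 50.8 CPM (lowest, median, highest). In UCMSC-Exos 5 libraries lay below every untreated one, at 15.4 to 27.7 CPM, and UCMSC-Exos 5, at 63.1 CPM, lay above every untreated one. The coefficient of variation was 22.4% in untreated HFD and 56.7% in UCMSC-Exos. The log2 fold change was −0.34 ± 0.27, with a 95% interval from −0.91 to 0.24 (edgeR adjusted p = 0.39).

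Gbp11 was the only member with a positive estimate. Untreated livers lay between 7.16 and 9.54 CPM, with a median of 7.95. UCMSC-Exos 1, 2 and 3 stood at 17.3, 13.9 and 15.5 CPM and UCMSC-Exos 6 at 11.6 CPM, above every untreated liver, while UCMSC-Exos 9, at 5.22 CPM, was below every untreated one. The log2 fold change was 0.43 ± 0.18 (edgeR adjusted p = 0.0974) and was called higher, at 0.54, only without UCMSC-Exos 9 among the 17 fits (edgeR adjusted p = 0.00882).

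**Figure D2:**
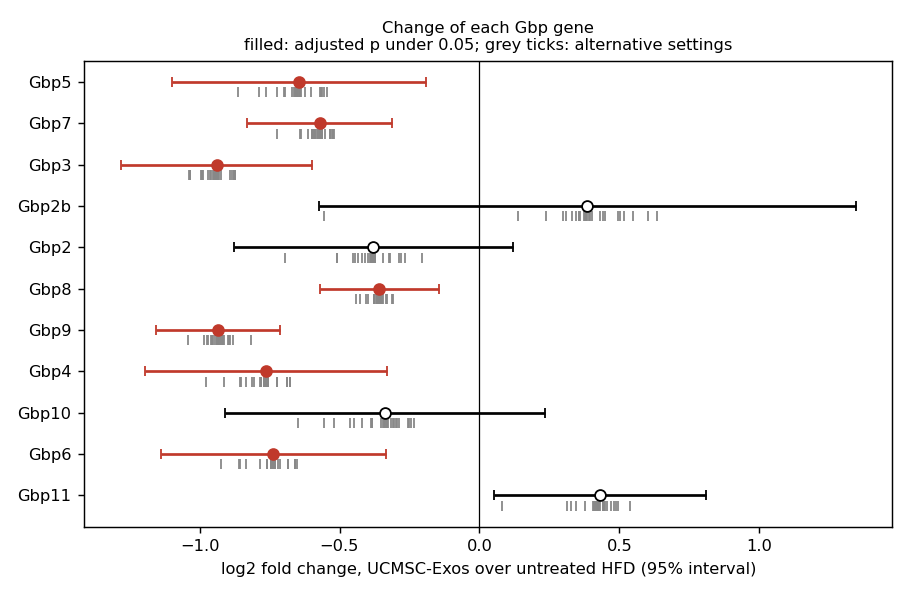
Log2 fold change of each Gbp gene, UCMSC-Exos over untreated HFD, with its 95% interval; filled red points passed an adjusted p of 0.05 and grey ticks are the values under alternative settings. The 7 filled points lie between −0.94 and −0.36, and the intervals of Gbp2, Gbp10 and Gbp2b span 0.

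The fall was not even across the treated livers. UCMSC-Exos 1, 2 and 3 were the 3 lowest of all 17 libraries for 7 of the 10 members (Gbp2, Gbp3, Gbp4, Gbp5, Gbp6, Gbp9 and Gbp10), a pattern looked for after the values were seen that 3.05% of all genes tested share. Averaged over the 7 called members, the log2 ratio to the mean of untreated HFD was −1.27, −1.21 and −1.28 in UCMSC-Exos 1, 2 and 3. The average was −0.25, −0.20 and −0.43 in UCMSC-Exos 5, 6 and 7, and −0.74 and −0.86 in UCMSC-Exos 8 and 9. All 7 called members were below the untreated median in 6 of the 8 treated libraries, and 6 and 5 of them were in UCMSC-Exos 5 and 6. The 7 were called on these same libraries, so low values in most of them follow from that choice. Over all 10 members the count was 9 in each of UCMSC-Exos 1, 2 and 3. It was 7, 5, 7, 8 and 10 in UCMSC-Exos 5, 6, 7, 8 and 9. The labels give no date, cage or batch that separates these libraries.

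**Figure D3:**
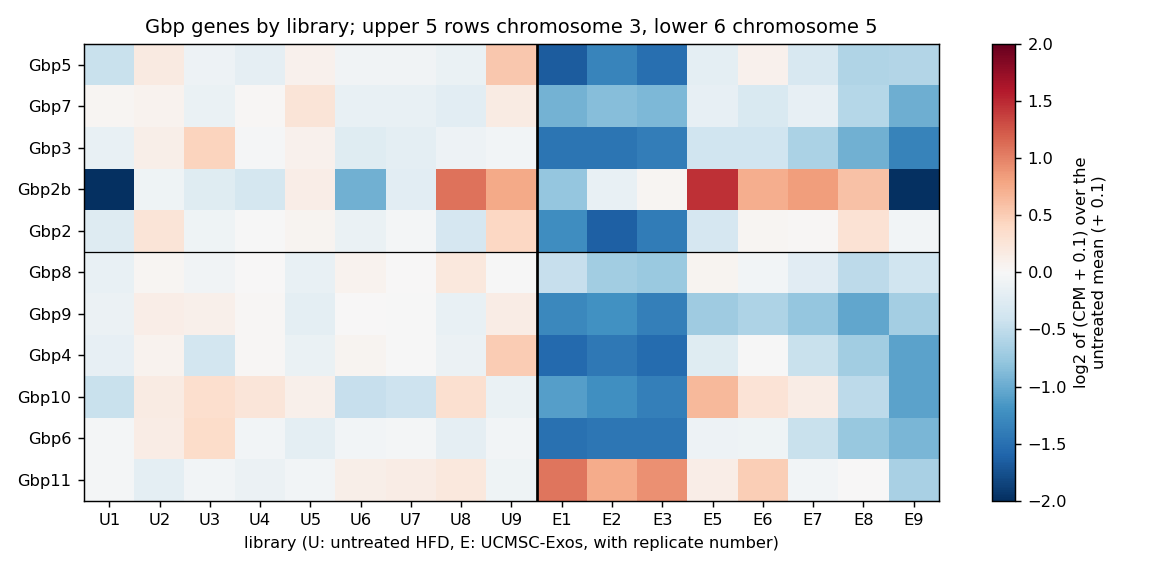
Log2 ratio of each Gbp gene in every library to its untreated mean (0.1 CPM added to both, colours end at −2 and 2), for untreated HFD (U) and UCMSC-Exos (E). The columns of UCMSC-Exos 1, 2 and 3 are the darkest blue for 7 members and red for Gbp11, and UCMSC-Exos 5 and 6 are pale for most.

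To compare genes with each other, counts were also divided by the length of the exon model (RPKM, the CPM per kilobase of exon). In untreated HFD Gbp3 stood highest at 24.9 ± 3.89 RPKM (SD, n = 9), above Gbp2 at 15.7 ± 2.70 in 9 of 9 livers with no overlap of the ranges. Gbp9, Gbp10 and Gbp7 followed at 10.9 ± 0.94, 10.3 ± 2.32 and 9.72 ± 1.09 RPKM, with overlapping ranges. Gbp8 came next, at 6.75 ± 0.54 RPKM, and lay below Gbp7 in 9 of 9 livers. The lowest levels were those of Gbp4 (4.58 ± 0.82), Gbp6 (3.90 ± 0.50), Gbp11 (3.06 ± 0.30) and Gbp5 (2.64 ± 0.53 RPKM), each overlapping its neighbour in that order.

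In UCMSC-Exos the order was less clear. Gbp3 and Gbp2 had 13.01 ± 4.35 and 12.0 ± 5.45 RPKM (SD, n = 8), Gbp3 being higher in 6 of 8 livers, and the ranges of all neighbours in the order overlapped. Gbp11 made up 2.63% to 4.02% of the summed RPKM of the 10 members in untreated livers. Its share was 14.3%, 12.3% and 13.6% in UCMSC-Exos 1, 2 and 3 and 3.55% to 5.10% in the other 5. In those 3 livers the summed RPKM of the members was 42.0 to 45.1, against 54.7 to 84.4 in the other treated livers and 82.0 to 103 in untreated ones.

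**Figure D4:**
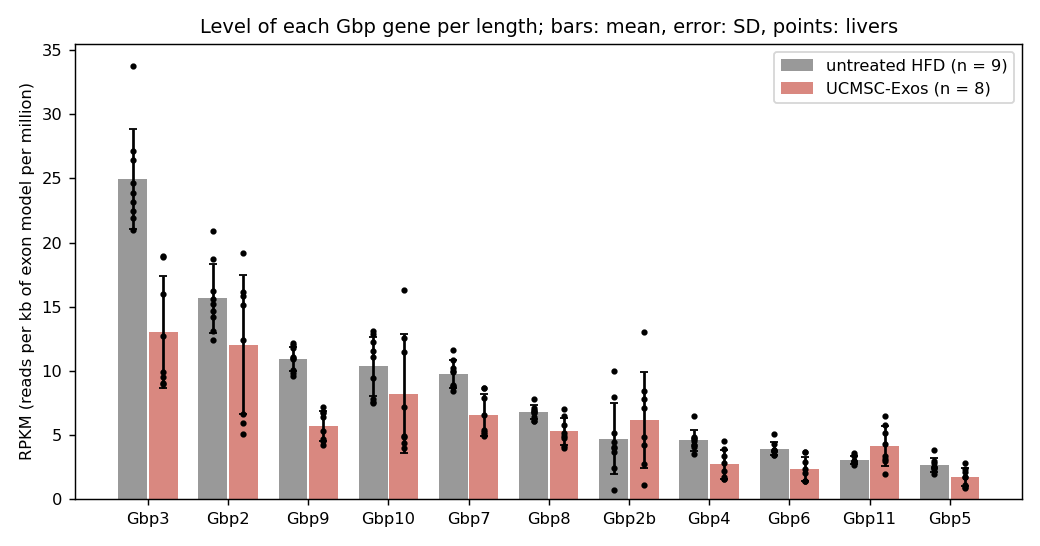
RPKM of each Gbp gene, ordered by the untreated mean; bars are means, error bars SD and points single livers of untreated HFD (grey, n = 9) and UCMSC-Exos (red, n = 8). By the full exon length Gbp3 and Gbp2 are the highest in both groups, and Gbp3 falls from 24.9 to 13.01 RPKM. With shared exon bases left out of the length, Gbp2 stood at 0.858 times Gbp10 in untreated HFD.

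Levels of Gbp10 and Gbp6 are uncertain, because these genes resemble each other and overlap a gene model, Gm43302, that spans both on the same strand. Of the 100-base stretches in the annotated transcripts of Gbp10, 60.1% also occur in Gbp6 and 63.6% in Gm43302. For Gbp6, 36.3% occur in Gbp10 and 59% in Gm43302. In the table's own annotation 46.3% of the exon bases of Gbp10 and 29% of those of Gbp6 are shared with Gm43302, whose count was 0 to 4 reads in each library. Reads on bases claimed by more than 1 gene are not assigned under the counter's options in the file header, so the values of Gbp10 and Gbp6 rest on the rest of their exons. With shared bases left out of the length, Gbp10 stood 1.73 times above Gbp9 in untreated HFD, in place of 0.951 times, and Gbp2 went from 1.58 to 0.858 times the level of Gbp10. The shorter length was not applied to UCMSC-Exos, so the place of Gbp10 there is uncertain too. For the other 8 members at most 10% of such stretches occur in another gene, the highest share being that of Gbp7 with the model Gm43802, which had no reads. Gbp8, Gbp9 and Gbp4 share an exon of about 60 bases at the upstream end of Gbp4, at most 1.77% of the exon bases of any of them.

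Genes upstream of the GBPs also fell in part. The signalling list held ligands, receptors, kinases and transcription factors of the interferon pathways. Of its 14 tested members 6 fell and 1 rose, with a median log2 fold change of −0.23. The counts of this and the following lists stand beside 10.4% of all genes tested called lower and 9.73% called higher. Irf7 and Stat2, transcription factors of the type I interferon response, fell, at −0.90 and −0.47, and Irf2, a repressor that competes for ISRE sites, rose by 0.42.

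Irf1, a transcription factor known to induce GBP genes, was singled out after its values were seen. It stood at 43.0 to 55.0 CPM in untreated HFD. UCMSC-Exos 1, 2 and 3 had 26.0, 26.0 and 25.2 CPM, below every untreated liver, and the other 5 had 43.6 to 51.8 CPM, within the untreated range. Its change of −0.35 ± 0.14 did not pass (edgeR adjusted p = 0.0784). Interferon-gamma itself (Ifng) was too rare to test, at 0 to 9 reads in a library, with no read in 3 untreated and 1 treated library. A difference in Ifng was not detectable at this depth.

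Of 7 genes listed as negative regulators of interferon signalling, 4 fell and none rose. Whether each of them, Isg15 included, restrains it in mouse liver was not tested. The ubiquitin-like Isg15, the protease Usp18, the JAK inhibitor Socs1 and the phosphatase Ptpn6 changed by −1.57 ± 0.30, −0.74 ± 0.16, −1.05 ± 0.27 and −0.38 ± 0.10. Among 16 other targets of interferon-gamma 11 fell and none rose, with a median of −0.49. They include the Fc receptor Fcgr1 (−1.17), the peptide transporter Tap1 (−0.69), the class II transactivator Ciita (−0.88) and the immunoproteasome subunit Psmb8 (−0.47). All 8 treated libraries had less Fcgr1 than any untreated one.

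The immunity-related GTPases, which act with the GBPs on microbial vacuoles, fell in part as well: 7 of 13 fell and none rose, with a median of −0.57. Tgtp2, Gm12250 (the gene of Irgb10), Gm5431 and 9930111J21Rik1 had the smallest p and changed by −1.53, −1.26, −0.91 and −0.80. Tgtp1 (−0.78, edgeR adjusted p = 0.0864) and 9930111J21Rik2 (−0.51, edgeR adjusted p = 0.0575) were not called. Tgtp2 stood at 4.70 CPM in untreated HFD 3, against an untreated median of 19.8 CPM. Sequence shared between these GTPase genes was not examined. Of 4 other large GTPases induced by interferon 1 fell, Mx1, from 33.5 to 8.36 CPM on average (−2.001 ± 0.25). Among the atlastins, dynamin-family relatives of the GBPs that fuse endoplasmic reticulum membranes, 1 of 3 was called higher, Atl2 at 0.26 (edgeR adjusted p = 0.0411), and none fell. Without untreated HFD 3 and 9 the call of Atl2 was lost (edgeR adjusted p = 0.0538).

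Of 16 inflammasome and pyroptosis genes 6 fell and none rose. The bacterial sensors Naip2 and Nlrc4 changed by −0.61 and −0.44, and the sensors Aim2 and Nlrp1b each by −0.51. In the list of Atg8 conjugation and vacuole targeting, the machinery that brings GBPs to vacuoles, 4 of 14 rose and 2 fell, with a median of 0.09. Those that rose included the Atg8 proteins Gabarapl1 (0.46) and Map1lc3b (0.27). The ubiquitin ligases Rnf213 and Trim21, both induced by interferon, fell by 0.82 and 0.67 on the log2 scale.

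**Figure D5:**
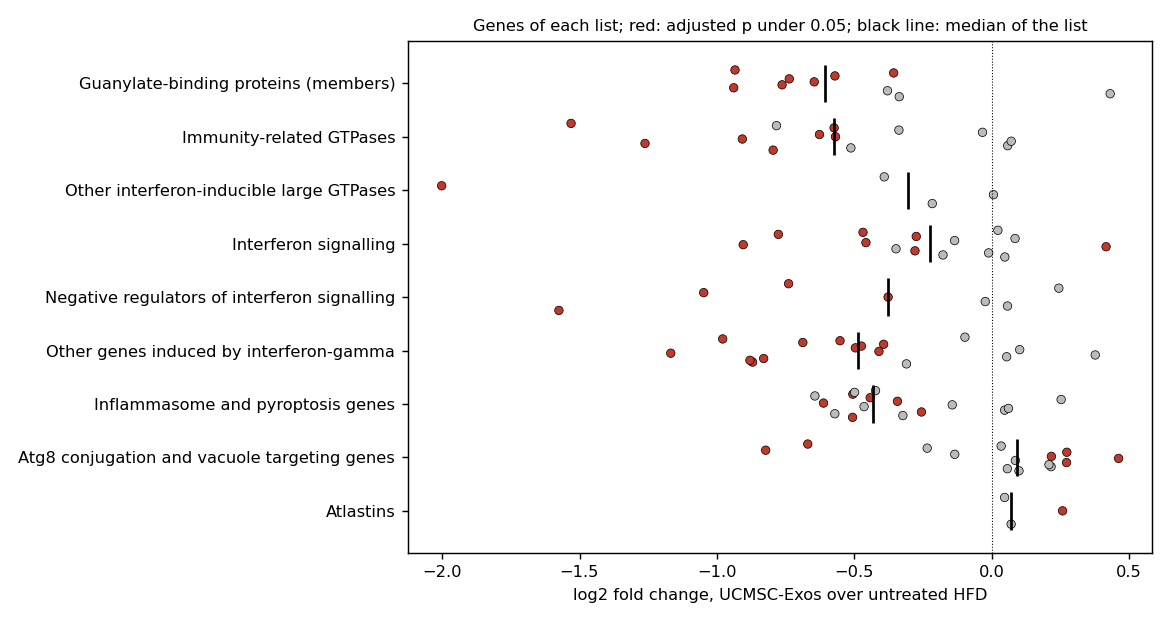
Log2 fold changes of the tested genes in each list, UCMSC-Exos over untreated HFD; red points passed an adjusted p of 0.05 and black lines are list medians. The medians of the GBPs (−0.61), the immunity-related GTPases (−0.57) and the other interferon-gamma targets (−0.49) are the lowest of the 9 lists drawn, which hold no cell type markers, and those of the Atg8 list and the atlastins lie just above 0.

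The 6 genes outside the family whose profile over the 17 libraries was nearest to the mean profile of the members included Cd274, BC023105, Samhd1, Ifi47 and Nod1. The distance between standardized log2 CPM profiles was 1.33 to 1.45 for the 6 genes, with a median of 4.92 over all genes tested. Among the members it was 1.27 for Gbp6 and 1.28 for Gbp4, and largest for Gbp10 (2.08), Gbp2 (2.50) and Gbp11 (6.25). Of those named, Cd274, Samhd1, Ifi47 and Nod1 were called lower, and BC023105 was not, at −1.10 (edgeR adjusted p = 0.0562).

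Markers of cell types that can make GBPs were counted in the same way, beside the same 10.4% of all genes called lower and 9.73% higher. Of 8 monocyte and recruited macrophage markers none rose and 3 fell: Ccr2 (log2 fold change −1.12), Ly6c2 (−1.07) and Cd9 (−0.75). The 8 markers summed to 400 to 682 CPM in untreated HFD and 238 to 1013 in UCMSC-Exos. The highest of these was UCMSC-Exos 9, in which the 7 called GBPs averaged −0.86, and in the other 7 treated libraries the sum was 238 to 512 CPM. Of 8 Kupffer cell markers 2 fell, C1qa (−0.52) and C1qb (−0.42), and 1 rose, Timd4 (2.39), with sums of 599 to 1887 and 940 to 1623 CPM. Of 5 tested dendritic cell markers 2 fell, Flt3 (−1.15) and Xcr1 (−1.11), with sums of 24.002 to 34.8 and 20.8 to 30.0 CPM. Of 8 endothelial markers 1, Stab2, was called higher and none lower (596 to 719 and 515 to 778 CPM). The summed levels of all 4 types overlapped between the groups, for dendritic cells only through UCMSC-Exos 9, at 30.0 CPM. A sum is weighted toward its most abundant markers. In the monocyte list Lyz2, not called, averaged 320 CPM in untreated HFD, against 25.9 for Ccr2 and 15.6 for Ly6c2. Ccr2 and Ly6c2 were below the untreated median in all 8 treated libraries, and Cd9 in 7. In the other treated libraries the dendritic sum was 20.8 to 23.4 CPM, below every untreated one.

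Of 10 T and NK cell markers, cells that make interferon-gamma, 1 rose, Cd4 (log2 fold change 1.62), and none fell. That share is close to the 9.73% of all genes called higher, and the sums were 18.0 to 31.1 and 19.2 to 46.8 CPM. Uncalled estimates were positive for Cd3d, Cd3e, Cd3g, Trac, Cd8a and Nkg7 (0.30 to 0.75). They were negative for Ncr1, Klrb1c and Gzma (−0.99 to −0.21). Of 7 B and plasma cell markers 3 rose (10.2 to 19.4 and 57.0 to 137 CPM), and of 5 tested neutrophil markers none passed (21.9 to 34.8 and 16.2 to 34.9 CPM). Of 8 stellate cell markers 3 were called lower (750 to 2023 and 497 to 1877 CPM). One of them was Des, the gene of the muscle filament desmin, at 681 CPM in untreated HFD 9 and 7.63 to 14.4 CPM in the other untreated livers. Without untreated HFD 3 and 9 the count was 2, Dcn and Colec11, and the untreated sum was 750 to 1485 CPM. None of 6 cholangiocyte markers passed (18.7 to 91.3 and 12.8 to 108 CPM), nor did the 1 adipocyte marker tested (1.08 to 18.1 and 0.588 to 13.8 CPM for the list). All 8 hepatocyte markers were called higher. The 1 acinar marker tested did not pass. The 1 muscle marker tested, Mylpf, was called lower, but it stood at 417 CPM in untreated HFD 9, 0.458 to 0.899 CPM in the other untreated livers and 0.459 to 1.39 CPM in UCMSC-Exos. Without untreated HFD 3 and 9 it was not called, and its log2 fold change was 0.35 (edgeR adjusted p = 0.31). In the same fit 2 of 8 monocyte markers were called lower, and of 8 endothelial markers none was called. That fit called 1 T and NK cell marker higher and 1 lower, 4 B and plasma cell markers higher and 7 hepatocyte markers higher. No listed marker in the table was at 0 in every library. The part of these cell types in the GBP result was not tested.

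Without untreated HFD 3 and 9 together, 6 of the 10 members were called lower, beside 9.74% of all genes called lower and 10.9% higher in that fit, and Gbp5 was not (−0.57, edgeR adjusted p = 0.0879). With 3 surrogate variables in the model 3 members were called: Gbp3, Gbp7 and Gbp9.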

How the data were processed

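Liver RNA was sequenced, and the authors deposited 1 table of raw read counts per gene, not normalized. The submitters' processing notes name HISAT2 2.2.1, fastp 1.3.3, Subread 2.0.2 and featureCounts, with the build mm10. Per the file headers, counting used featureCounts 2.1.1 with GENCODE vM25 exons, without strand and without multi-mapping reads. The 2 sources differ in version. The exon length in bases, also deposited by the authors, gave RPKM. Both mates of a pair are counted, and copies such as Gbp6 and Gbp10 lose shared reads.

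Of the per-sample columns, 1 matched no sample and was not used. In R 4.3.3 with edgeR 4.0.16, genes passing filterByExpr (minimum count 10) were scaled by TMM and tested by a robust quasi-likelihood F test, two-sided, adjusted over all 16238 genes, with a threshold of 0.05. CPM uses the effective library size. SE and 95% intervals come from that fit. The steps were tested on simulated counts. They called 38.4% of the genes given a log2 change of 0.5 and 75.5% of those given 1, and 4 of 116 calls were false. The simulation changed 100 genes at each size among 16040, a smaller share than was called in the data, and drew libraries independently. Its rates therefore need not hold for these data. No pair of libraries of the same group agreed within sampling noise: the closest were UCMSC-Exos 2 and 3, at 3.73 times the median chi-square of such noise. Pairs across the groups were not compared. Next came untreated HFD 6 and 7 (4.35), UCMSC-Exos 1 and 2 (4.50), untreated HFD 2 and 4 (4.66) and UCMSC-Exos 1 and 3 (5.08). UCMSC-Exos 1, 2 and 3, lowest for 7 of the 10 members, were thus also among the libraries most alike within a group over all genes tested.

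All members are named. In each other list up to 4 genes of smallest p that passed are named, or 2 where none did, and the 6 genes of nearest profile (log2 of CPM + 1). One gene that this rule names is not reported here. Members and lists were chosen with earlier results of these data known. The alternatives comprised upper quartile or RLE scaling, no filter, 1 CPM in 8 libraries, the replicate number as a block, 3 surrogate variables (sva 3.50.0), DESeq2 1.42.0, limma voom with quality weights (limma 3.58.1), halved counts, leaving out each library or untreated HFD 3 and 9, and levels without length. The length without shared exon bases and the counts of the other lists without untreated HFD 3 and 9 were added after seeing the data.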

Additional observations from a re-analysis of the deposited data

Results flagged for a closer look

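In groups of this size chance flags about 1 in 20 groups, and 22 were examined (10 members and Gbp2b in both groups). Gbp3 in untreated HFD stood out because its highest library, untreated HFD 3 at 110 CPM, lay 0.518 of the whole range above the next (critical value 0.493). Gbp4 in untreated HFD stood out because untreated HFD 9, at 48.6 CPM, lay 0.571 of the range above the next. These are the libraries that hold acinar and muscle transcripts, at 10942 and 7942 CPM. With both left out, the calls of Gbp3 and Gbp4 remained, at log2 fold changes given in the next part.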

How the results depend on the processing

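The count of 7 members called lower was 6 to 7 when each library was left out in turn, 7 with RLE scaling, upper quartile scaling, the 1 CPM filter, halved counts and DESeq2, 6 without a filter and without untreated HFD 3 and 9, 8 with limma voom, and 3 with 3 surrogate variables. The count of members called higher, 0, was 1 with limma voom and 0 to 1 when each library was left out. Gbp3, Gbp7 and Gbp9 were called lower in all 27 alternatives. Gbp5 was lost without a filter (edgeR adjusted p = 0.0862), without untreated HFD 3 and 9 (0.0879) and in 10 fits without 1 library. With surrogate variables Gbp4, Gbp5, Gbp6 and Gbp8 had log2 fold changes of −0.83, −0.60, −0.73 and −0.40 and adjusted p of 0.0813, 0.211, 0.0938 and 0.0526, and Gbp2b turned to −0.55; the cause was not tested. Limma voom called Gbp2 (−0.70, adjusted p = 0.0161) and Gbp11 (0.49, adjusted p = 0.0191). Without untreated HFD 3 and 9, Gbp3 and Gbp4 stood at −0.87 and −0.72, the count of interferon-signalling genes called lower was 7 in place of 6, of immunity-related GTPases 8 in place of 7 and of other interferon-gamma targets 10 in place of 11. With the replicate number as a block, 7 members were called lower and no call changed; the numbers do not pair the samples (2 of 8 same-numbered pairs had deviations correlated above 0.1, range −0.21 to 0.33), and no treated library correlated best with its own number. Without division by length, Gbp3 stood 4.79 times above Gbp5, in place of 9.73.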
